A study of Mus musculus with 18 samples.

Results

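The genes described here are 10 transcripts of the retinal pigment epithelium and the visual cycle: Rpe65, Lrat, Rdh5, Rgr, Best1, Ttr, Tyrp1, Dct, Mlana and Mitf. They were taken by symbol from the 35006 genes counted in each library, and all 10 of the 10 were found. RNA of mouse retina was sequenced in 18 libraries of male mice aged 24 weeks, in 4 groups. The WT group (C57BL/6J mice given water) had 3 libraries and the WT + NACET group (C57BL/6J) had 6. The Akita group (C57BL/6-Ins2Akita/J mice given water) had 4 libraries and the Akita + NACET group (the same strain) had 5. Akita mice carry a mutation in 1 copy of the insulin gene Ins2 in the whole body, make too little insulin and are a model of diabetes, while the WT mice have normal blood glucose. NACET, the ethyl ester of N-acetylcysteine and a precursor of glutathione, was drunk with the water (0.33 mg/mL, a daily dose of 50 mg/kg) between the ages of 4 and 24 weeks. Each library held between 11495596 and 17814479 counts in genes. Nothing in the labels says whether a library is 1 mouse, so p-values measure the spread between these libraries.

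The pigment epithelium is a layer of cells behind the photoreceptors that takes up their shed outer segments, holds melanin and rebuilds the chromophore of the visual pigments. In the visual cycle, light turns the cis form of retinal into the trans form, which is reduced to retinol and passed to the pigment epithelium. There LRAT makes the retinyl ester, RPE65 turns the ester into cis-retinol, and RDH5 oxidizes it to cis-retinal, which returns to the photoreceptors. RGR is an opsin of the pigment epithelium and of Mueller glia that also acts on retinal. Transthyretin (Ttr) carries the retinol-binding protein, and bestrophin (Best1) is a chloride channel of the basal membrane. TYRP1 and DCT are enzymes of melanin synthesis, MLANA is a melanosome protein, and MITF is the transcription factor that controls many pigment genes. Melanin genes are shared by the pigment epithelium, the pigmented layers of the ciliary body and iris, and melanocytes of the choroid.

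The labelled tissue was checked against its markers. Gnat1, the transducin subunit of rods, was at 8426 to 24551 CPM (counts per library scaled to a common size) over the 18 libraries, and the 8 genes of Mueller glia summed to between 1767 and 4586 CPM. The 10 pigment epithelium and visual cycle genes summed to between 92.3 and 1591 CPM, so that these libraries were of retina with a small and uneven share of transcripts of these genes. The cells from which these transcripts came were not tested. In bulk RNA, fewer cells of a type and less RNA per cell cannot be told apart. The WT + NACET group stood apart from the others in genes outside the 10. Nnt, a mitochondrial transhydrogenase that is mutated in C57BL/6J, was at 16.3 to 23.8 CPM in WT + NACET and at 7.05 to 14.8 CPM in the other 12 libraries. Mc1r, the melanocortin receptor of melanocytes, was at 3.48 to 5.77 CPM in WT + NACET and at 1.502 to 2.74 CPM elsewhere. The part of such differences in the results below that set WT + NACET against another group was not tested.

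The loci of the genes other than Ttr are given on mm9, the build to which the reads were aligned. Rpe65 is at chr3:159262197-159287763 and Lrat at chr3:82696501-82707895. Rgr is at chr14:37850676-37862150 and Dct at chr14:118412014-118451468. Best1 is at chr19:10059664-10076123 and Mlana at chr19:29772411-29782938. Rdh5 is at chr10:128350649-128359944, Tyrp1 at chr4:80480027-80497623 and Mitf at chr6:97757052-97971352.

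RefSeq promoters, of another build (GRCm38.p6), were matched for 8 of the 10 genes, with 250 bases before and 50 after the transcription start. Those of the genes on which the results turn are printed below, since genes of the visual cycle and of melanin synthesis varied widely across libraries. Capitals mark an M-box (TCATGTG, a site of MITF) or an OTX/CRX site (TAATCC, of the homeobox factors OTX2 and CRX), searched on both strands, with no overlap between them.
Rpe65 promoter (chr3:159598931-159599230, plus strand): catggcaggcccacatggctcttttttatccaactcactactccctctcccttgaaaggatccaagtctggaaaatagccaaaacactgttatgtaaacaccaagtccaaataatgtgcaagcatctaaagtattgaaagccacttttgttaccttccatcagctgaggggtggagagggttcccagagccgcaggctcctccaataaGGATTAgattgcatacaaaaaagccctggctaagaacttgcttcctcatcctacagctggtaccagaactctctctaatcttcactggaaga
Rdh5 promoter (chr10:128919248-128919547, minus strand): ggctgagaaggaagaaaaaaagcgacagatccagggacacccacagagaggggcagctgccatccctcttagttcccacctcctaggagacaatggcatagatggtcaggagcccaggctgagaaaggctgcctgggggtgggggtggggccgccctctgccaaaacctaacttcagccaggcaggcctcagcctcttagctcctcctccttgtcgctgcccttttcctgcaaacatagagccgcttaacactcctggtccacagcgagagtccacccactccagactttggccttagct
Rgr promoter (chr14:37048965-37049264, minus strand): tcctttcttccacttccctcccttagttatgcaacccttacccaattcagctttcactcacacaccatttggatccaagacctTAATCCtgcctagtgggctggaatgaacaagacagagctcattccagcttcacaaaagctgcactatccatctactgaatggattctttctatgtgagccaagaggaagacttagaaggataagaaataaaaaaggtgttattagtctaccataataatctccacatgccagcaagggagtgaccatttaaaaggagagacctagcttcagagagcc
Tyrp1 promoter (chr4:80833963-80834262, plus strand): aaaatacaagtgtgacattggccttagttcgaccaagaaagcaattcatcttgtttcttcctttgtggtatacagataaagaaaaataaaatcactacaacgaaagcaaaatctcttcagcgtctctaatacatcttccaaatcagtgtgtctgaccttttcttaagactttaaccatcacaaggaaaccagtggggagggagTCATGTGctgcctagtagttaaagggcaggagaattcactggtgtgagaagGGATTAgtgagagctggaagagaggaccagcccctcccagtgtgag
Dct promoter (chr14:118052197-118052496, minus strand): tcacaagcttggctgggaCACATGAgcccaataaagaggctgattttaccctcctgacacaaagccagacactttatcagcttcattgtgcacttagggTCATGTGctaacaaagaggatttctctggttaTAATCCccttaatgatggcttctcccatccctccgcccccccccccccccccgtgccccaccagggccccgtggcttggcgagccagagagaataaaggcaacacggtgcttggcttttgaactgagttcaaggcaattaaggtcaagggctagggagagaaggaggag
The M-box was found in 2 of the 10 windows (Mitf has 3), those of Tyrp1 and Dct, and in 3.78% of all 32817 promoter windows. The OTX/CRX letters stood in 6 of the 10 windows and in 7.06% of all windows, and the E-box CACGTG in 0 of the 10 and in 7.15%. The window of Rdh5 held none of the searched letters. These matches are a description of the letters in the window.

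The levels of 8 of the 10 genes varied more between libraries than nearly all other genes did. Lrat ranged from 1.85 to 98.8 CPM over the 18 libraries, a 53.3-fold span. Rgr ranged from 25.3 to 767 CPM (30.3-fold), Rdh5 from 5.39 to 121 CPM (22.5-fold) and Rpe65 from 5.27 to 104 CPM (19.6-fold). The span of the median tested gene was 2.06-fold. Among the melanin genes, Mlana ranged from 0.5002 to 72.0 CPM (144-fold), Tyrp1 from 2.01 to 100.1 CPM (49.8-fold) and Dct from 10.2 to 426 CPM (41.8-fold). The standard deviation of log2 CPM of these genes and of Ttr (21.3-fold) lay at or above the 99.3 percentile of the tested genes. Mitf spanned only 2.004-fold, near the median gene, and Best1 3.88-fold. Per kilobase of exon, the mean level was highest for Rgr (149.7 CPM per kb) and Ttr (118 CPM per kb), followed by Dct (26.5) and Rpe65 (24.8). Mlana stood at 16.0, Rdh5 at 13.8, Tyrp1 at 5.46, Lrat at 5.15, Mitf at 1.66 and Best1 at 0.840 CPM per kb.

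**Figure D1:**
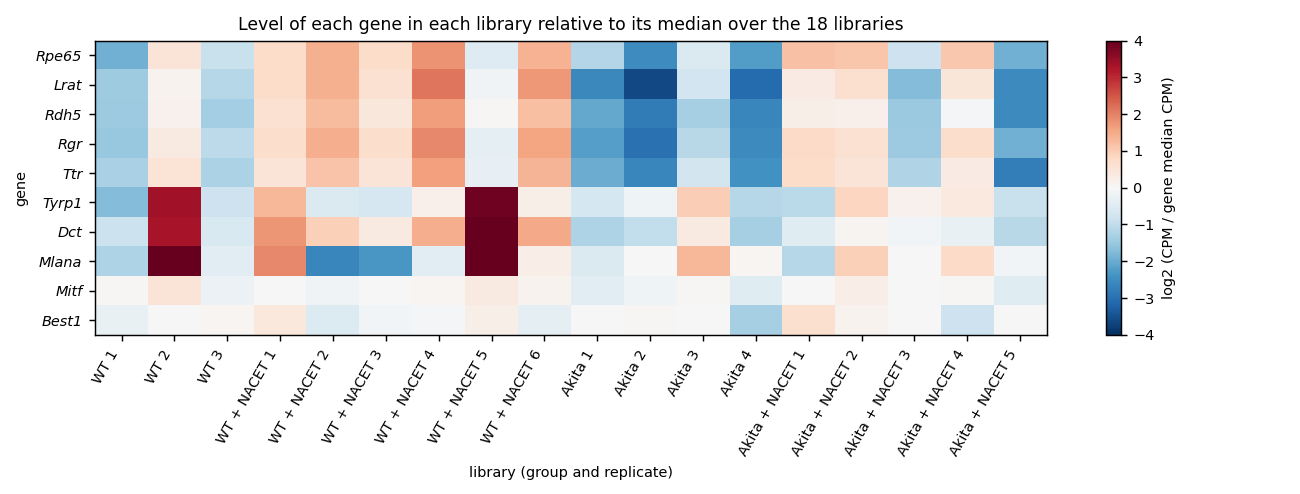
Level of each of the 10 genes (rows) in each of the 18 libraries (columns) as log2 of CPM over the gene's median CPM, in color. Rpe65, Lrat, Rdh5, Rgr and Ttr rise and fall together, with their highest level in WT + NACET replicate 4, while Tyrp1, Dct and Mlana are highest in WT + NACET replicate 5 and WT replicate 2.

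The highest and lowest libraries differed between the visual cycle genes and the melanin genes. Rpe65, Lrat, Rdh5, Rgr and Ttr were all highest in WT + NACET replicate 4. The first 4 of these were lowest in Akita replicate 2, and Ttr was lowest in Akita + NACET replicate 5. Tyrp1, Dct and Mlana were all highest in WT + NACET replicate 5, followed by WT replicate 2 and WT + NACET replicate 1. WT + NACET replicate 4, the highest library for Rpe65, ranked only 13 of 18 for Mlana, at 2.21 CPM. WT + NACET replicate 5, the highest library for Dct, ranked 10 of 18 for Rpe65, at 20.7 CPM.

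Rpe65, the isomerase of the visual cycle, was at 7.90, 43.2 and 16.3 CPM in the 3 WT libraries. It was at 13.3, 5.27, 19.8 and 6.30 CPM in the 4 Akita libraries. In the 5 Akita + NACET libraries it was at 67.5, 64.9, 17.0, 62.8 and 7.97 CPM. In WT + NACET the lowest, median and highest values were 20.7, 63.9 and 104 CPM. All Akita libraries were below all WT + NACET libraries, as for 7.77% of all tested genes whose levels did not overlap between these groups. WT overlapped with every group, and 3 of the 5 Akita + NACET libraries were above all WT and Akita libraries.

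Rgr, the most abundant of the 10 genes, was at 71.2, 257 and 97.4 CPM in WT. It was at 43.8, 25.3, 94.6 and 34.4 CPM in Akita and at 341, 311, 73.3, 327 and 53.0 CPM in Akita + NACET. In WT + NACET the lowest, median and highest values were 159, 441 and 767 CPM. The same 3 Akita + NACET libraries were high and the other 2, replicates 3 and 5, lay within the range of Akita and WT.

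Lrat, which stores retinol as its ester, was at 8.47, 24.8 and 10.2 CPM in WT and at 3.79, 1.85, 13.1 and 2.65 CPM in Akita. In Akita + NACET it was at 28.3, 35.1, 6.83, 31.8 and 3.85 CPM, and in WT + NACET at 20.5, 48.6 and 98.8 CPM (lowest, median, highest). Rdh5, the last enzyme of the cycle, was at 13.8, 42.4 and 14.7 CPM in WT and at 9.05, 5.39, 15.0 and 6.13 CPM in Akita. Both genes had, like Rpe65, the highest group mean in WT + NACET and the lowest in Akita. Rdh5 was at 44.4, 43.2, 13.6, 36.2 and 6.47 CPM in Akita + NACET, and at 39.4, 72.8 and 121 CPM in WT + NACET. Of the 5 Akita + NACET libraries, 3 were below the lowest WT + NACET library in Rdh5, which was not the case for Rpe65, where 2 were. Ttr was at 52.8, 190 and 54.1 CPM in WT, and at 33.3, 21.6, 79.3 and 24.3 CPM in Akita. In Akita + NACET it was at 215, 185, 56.8, 163 and 19.2 CPM, and in WT + NACET at 104, 237 and 409 CPM. Its 4 Akita libraries lay below all 6 WT + NACET libraries, as did those of the 4 visual cycle genes.

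**Figure D2:**
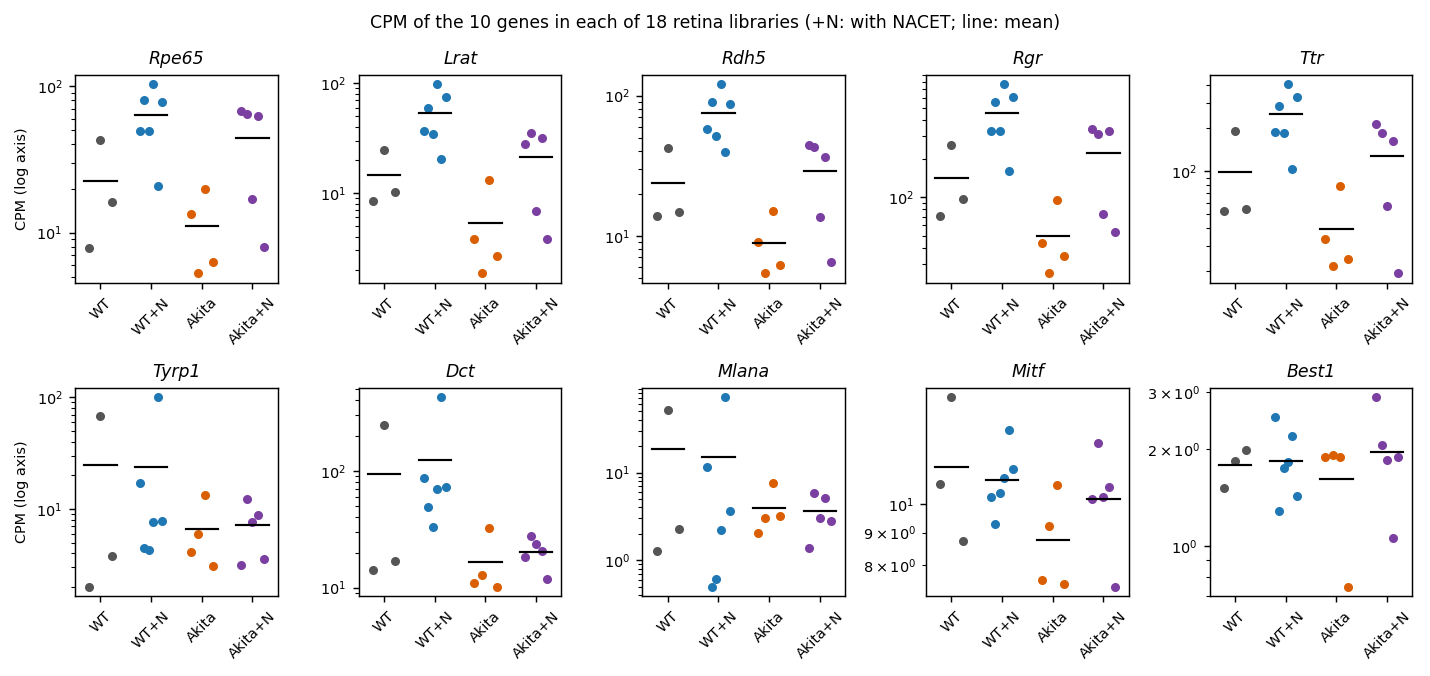
CPM (log axis) of each gene in the 4 groups, with 1 point per library and a line at the group mean (+N marks NACET). Rpe65, Lrat, Rdh5, Rgr and Ttr have their lowest mean in Akita and their highest in WT + NACET, 3 of 5 Akita + NACET libraries (2 of 5 for Rdh5) lie within the range of WT + NACET, and Best1 and Mitf are at about the same level in every group.

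The comparison of Akita with WT asks what diabetes changed in untreated retinas. Rgr differed by −1.51 on the log2 scale (SE 0.73, adjusted p = 0.196, edgeR quasi-likelihood test with Benjamini-Hochberg adjustment over all 16183 genes tested). Rdh5 differed by −1.40 (SE 0.65, adjusted p = 0.181), Lrat by −1.41 (SE 0.84, adjusted p = 0.301), Ttr by −1.31 (SE 0.75, adjusted p = 0.279) and Rpe65 by −0.99 (SE 0.78, adjusted p = 0.441). None of these differences passed the threshold of 0.05. In edgeR 0 of the 10 genes were called, with 2 at an unadjusted p under 0.05 (4377 of all 16183 tested genes), and DESeq2 called 0 both over the 4 groups and over Akita and WT alone. Of all tested genes 7.64% were called. The median log2 fold change was −1.40 over the 10 genes and −0.01 over all tested genes, and 0 of the 10 had a positive fold change. These signs are not separate results, since Rpe65, Lrat, Rdh5, Rgr and Ttr varied together over the libraries. The signs of Dct, Tyrp1 and Mlana turned without WT replicate 2.

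The comparison of Akita + NACET with Akita asks what NACET changed in diabetic retinas. Rgr was 2.16 higher on the log2 scale (SE 0.68, adjusted p = 0.0584 by edgeR), Rpe65 1.97 higher (SE 0.71, adjusted p = 0.0886) and Lrat 1.97 higher (SE 0.76, adjusted p = 0.109). Rdh5 was 1.69 higher (SE 0.59, adjusted p = 0.0797) and Ttr 1.69 higher (SE 0.69, adjusted p = 0.124). These differences of about 2 log2 units did not pass the threshold, and replicates 3 and 5 of Akita + NACET lay within the Akita range or close to it. In edgeR 0 of the 10 genes were called, where 9.65% of all tested genes were called. At an unadjusted p under 0.05 there were 5 of the 10 and 4700 of all 16183 tested genes. DESeq2 with all groups called 4 of the 10: Rgr (adjusted p = 0.00596), Rdh5 (0.0214), Rpe65 (0.0245) and Lrat (0.0329), and with the pair of groups alone it called 2, Rgr and Rpe65. Over all genes these DESeq2 fits called 2387 and 1775, against 1562 by edgeR. Over all alternatives the adjusted p ranged from 0.00596 to 0.628 for Rgr, and up to 0.633 for Rpe65, 0.631 for Lrat and 0.631 for Rdh5. Without Akita + NACET replicate 3 edgeR called Rgr (2.38, adjusted p = 0.0402). The median log2 fold change was 0.99 over the 10 genes and −0.00 over all tested genes, with 9 of the 10 positive. Here, too, the signs are not separate results.

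The comparison of WT + NACET with WT asks the same in mice without diabetes. Lrat was 1.92 higher (SE 0.79, adjusted p = 0.202 by edgeR), Rgr 1.69 higher (SE 0.72, adjusted p = 0.221) and Rdh5 1.67 higher (SE 0.62, adjusted p = 0.163). Rpe65 was 1.51 higher (SE 0.75, adjusted p = 0.279) and Ttr 1.35 higher (SE 0.73, adjusted p = 0.323). In edgeR 0 of the 10 genes were called, where 1.48% of all tested genes were called. At an unadjusted p under 0.05 there were 3 of the 10 and 3162 of all 16183 tested genes. DESeq2 with all groups called 0, and with the pair of groups alone it called 3: Rdh5 (adjusted p = 0.0179), Lrat (0.0203) and Rgr (0.0448). Over all genes these DESeq2 fits called 705 and 938, against 240 by edgeR. Over the alternatives these adjusted p-values ranged up to 0.483, 0.574 and 0.588. The size of the difference depended on WT replicate 2, the highest WT library. Without it the difference of Rpe65 was 2.39 and that of Rdh5 2.39, which were still not called (adjusted p = 0.280 and 0.183 by edgeR).

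Between the treated groups, the fold changes of Akita + NACET against WT + NACET were negative in the visual cycle genes, and none passed the threshold in edgeR. Rdh5 differed by −1.38 (SE 0.50, adjusted p = 0.0801 by edgeR), Lrat by −1.36 (SE 0.62, adjusted p = 0.154) and Rgr by −1.05 (SE 0.58, adjusted p = 0.235). Ttr differed by −0.97 (SE 0.60, adjusted p = 0.283) and Rpe65 by −0.53 (SE 0.59, adjusted p = 0.572). In edgeR 0 of the 10 genes were called, where 13.3% of all tested genes were called. At an unadjusted p under 0.05 there were 3 of the 10 and 5038 of all 16183 tested genes. DESeq2 called 2 of the 10 with all groups and 2 with the pair of groups alone, Rdh5 and Dct in both, where it called 2751 and 3033 of all genes. The adjusted p of Rdh5 was 0.0346 and 0.0377 in these fits and ranged up to 0.301 over the alternatives. Akita + NACET against WT gave 0 of the 10 called by edgeR, 1 at an unadjusted p under 0.05 (Dct, among 750 of all tested genes), 0 by DESeq2 in both fits and 0.00618% of all tested genes called. The interaction of genotype and NACET gave 0 of the 10 called by edgeR, 0 at an unadjusted p under 0.05 (5759 of all tested genes) and 0 by DESeq2, where 20.3% of all tested genes were called by edgeR. The lowest adjusted p of the interaction was that of Mitf, 0.422.

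Since the visual cycle genes shared most of their variation between libraries, they were also compared at equal Rpe65, with the log2 CPM of Rpe65 of each library as a covariate, a fit that was added after the data were seen. Rdh5 was lower in Akita + NACET than in WT + NACET at equal Rpe65, and this held in each of the alternatives run. The ratio of Rdh5 to Rpe65 counts was 0.657, 0.665, 0.801, 0.577 and 0.811 in the 5 Akita + NACET libraries. In WT + NACET the lowest, median and highest ratios were 1.03, 1.15 and 1.91. The 2 groups did not overlap. A ratio to Rpe65 without overlap between these groups was found for 0.167% of the 16182 other tested genes. Rpe65 itself overlapped between these groups, so the ratio of a gene that does not vary with Rpe65 tends to overlap. This share is therefore no measure of how unusual such a ratio is among genes that vary with Rpe65. With Rpe65 as a covariate Rdh5 differed by −0.99 (SE 0.12, adjusted p = 0.000112 by edgeR). Over the alternatives within this fit its difference lay between −1.04 and −0.53, and its adjusted p between 6.49e-06 and 0.0234. The smallest difference, −0.53 (SE 0.13), was obtained with Rgr in place of Rpe65, where 4.98% of all tested genes were called, and with Ttr in its place Rdh5 differed by −0.55 (SE 0.09, adjusted p = 0.0022), where 3.86% were called.

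At equal Rpe65, which leaves 9 genes that could differ, 4 of the 9 were called between the treated groups, all lower in Akita + NACET, against 8.17% of all tested genes. Besides Rdh5 these were Lrat (−0.85, SE 0.19, adjusted p = 0.0129), Rgr (−0.55, SE 0.12, adjusted p = 0.0128) and Ttr (−0.54, SE 0.16, adjusted p = 0.0421). The share of 8.17% includes genes that do not vary with Rpe65, such as Best1, whose SE was 0.26 by group and 0.27 with the covariate. It is therefore no measure of how unusual the 4 calls are among genes that vary with Rpe65. All 4 calls share Rpe65 as their reference. The ratio of Lrat to Rpe65 was 0.418, 0.540, 0.402, 0.506 and 0.484 in Akita + NACET, and at least 0.699 in WT + NACET, without overlap. The ratio of Ttr to Rpe65 was 2.41 to 3.35 in Akita + NACET and 3.57 to 5.04 in WT + NACET, also without overlap, while the ratios of Rgr overlapped (4.32 to 6.66 and 6.57 to 7.80). The calls of Lrat, Rgr and Ttr were not stable. Lrat was not called with Rgr or Ttr as the covariate (−0.25 and −0.29) or without WT + NACET replicate 5 (−0.78, adjusted p = 0.0512), and Rgr was not called with Ttr as the covariate (−0.07). Without both WT replicate 2 and WT + NACET replicate 5, which had the most Dct, neither Lrat (−0.72, adjusted p = 0.0731) nor Rgr (−0.55, adjusted p = 0.0586) was called. With the share of reads outside exons (9.55 to 19.8% of the reads of a library) added as a covariate, Rdh5 kept its call (−0.98, adjusted p = 0.00209), while Lrat (−0.73, adjusted p = 0.159), Rgr (−0.54, adjusted p = 0.0975) and Ttr (−0.39, adjusted p = 0.352) were not called. Ttr was lost without any of 7 libraries, with the adjusted p between 0.0573 and 0.148, namely WT + NACET replicates 3, 4, 5 and 6 and Akita + NACET replicates 2, 4 and 5. At equal Rgr, Rpe65 itself was 0.55 higher in Akita + NACET (SE 0.14, adjusted p = 0.0303).

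The same comparison of the untreated groups gave 2 of these 9 genes called, both lower in Akita, against 4.76% of all tested genes. The ratio of Rgr to Rpe65 was 9.01, 5.94 and 5.99 in WT and 3.28, 4.80, 4.77 and 5.46 in Akita, without overlap, as for 0.791% of the other tested genes. This share, too, includes genes that do not vary with Rpe65, whose ratios tend to overlap. For the same reason the 4.76% is no measure of how unusual the 2 calls are among genes that vary with Rpe65. At equal Rpe65 Rgr differed by −0.69 (SE 0.15, adjusted p = 0.0283 by edgeR). Rdh5 differed by −0.67 (SE 0.17, adjusted p = 0.035), with ratios of 1.75, 0.983 and 0.904 in WT and of 0.679, 1.02, 0.756 and 0.974 in Akita that overlapped. Both calls were lost without WT replicate 1 (−0.50 for Rgr and −0.45 for Rdh5), WT replicate 2 (−0.73 and −0.64) or Akita replicate 1 (−0.56 and −0.59), and that of Rdh5 also without Akita replicate 4 (−0.68). Another covariate also lost both calls. With Rgr as the covariate Rdh5 differed by −0.10 (adjusted p = 0.777 by edgeR), and with Ttr by −0.29 (adjusted p = 0.131). With Ttr as the covariate Rgr differed by −0.35 (adjusted p = 0.247). Lrat (−0.71, SE 0.26, adjusted p = 0.105) and Ttr (−0.47, SE 0.20, adjusted p = 0.155) were not called, but Lrat was called without Akita replicate 3 (−1.17) and Ttr without WT replicate 3 (−0.68).

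**Figure D3:**
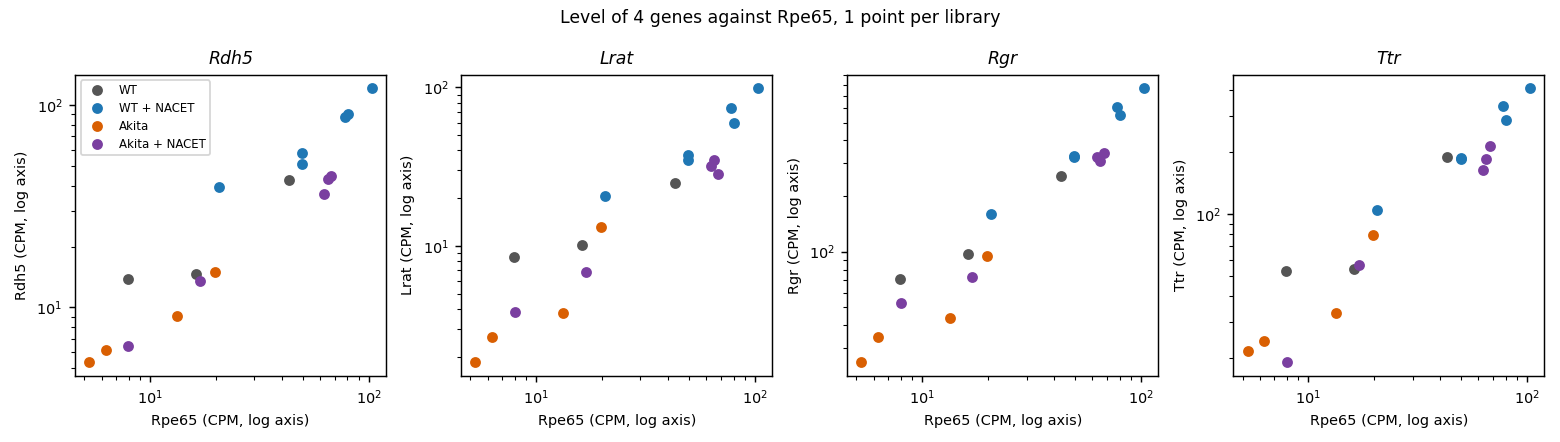
CPM of Rdh5, Lrat, Rgr and Ttr against CPM of Rpe65 (both log axes), with 1 point per library colored by group. All 4 genes rise with Rpe65, and the ratio of Rdh5 to Rpe65 is at most 0.811 in Akita + NACET against at least 1.03 in WT + NACET.

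**Figure D4:**
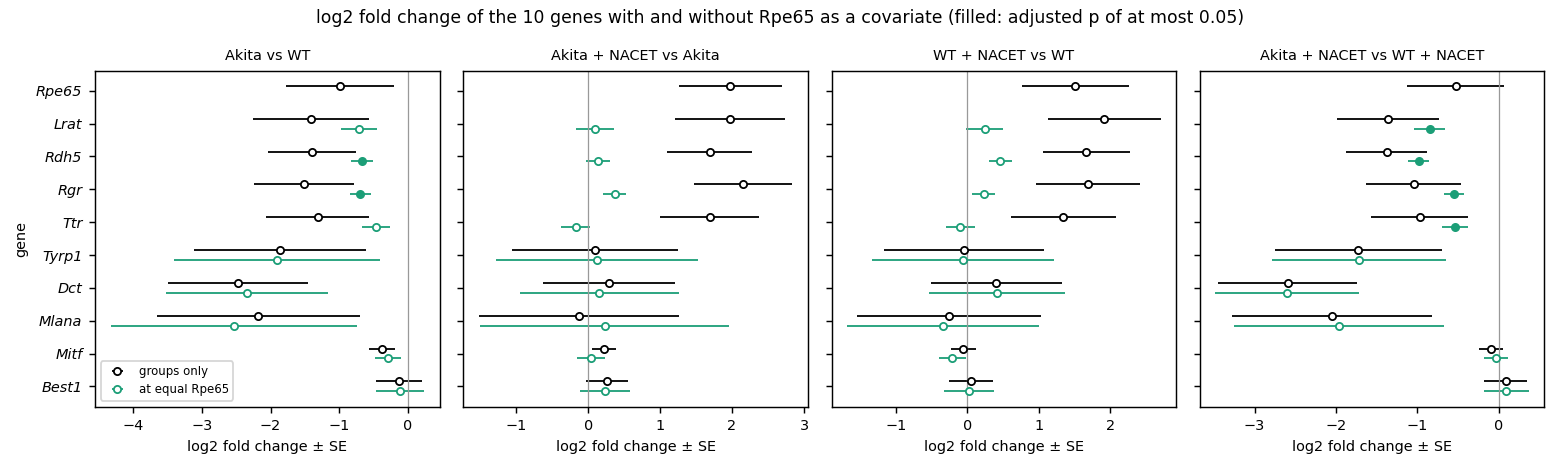
The log2 fold change with its SE of the 10 genes in 4 comparisons, from the fit by group (black) and with Rpe65 as a covariate (green), where filled points have an adjusted p of at most 0.05. No black point is filled, and the SE of Rdh5, Lrat, Rgr and Ttr is several times smaller with the covariate, as in Rdh5 of the treated groups (0.12 against 0.50).

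The highest levels of the melanin genes were in a few libraries. Dct, which converts dopachrome in melanin synthesis, was at 14.1, 249 and 16.9 CPM in WT and at 10.9, 12.8, 32.4 and 10.2 CPM in Akita. In Akita + NACET it was at 18.3, 27.6, 23.6, 20.6 and 11.8 CPM, and in WT + NACET at 33.0, 71.6 and 426 CPM (lowest, median, highest). All 6 WT + NACET libraries were above all 5 Akita + NACET libraries and above all 4 Akita libraries. Levels without overlap between the treated groups were found for 8.01% of all tested genes. Between the treated groups Dct differed by −2.59 (SE 0.85, adjusted p = 0.0583 by edgeR), which did not pass the threshold. DESeq2 called it (adjusted p = 0.0065 with all groups and 0.00111 with the pair of groups). Without WT + NACET replicate 5 the difference was −1.61 (adjusted p = 0.156), and without WT replicate 2 as well it was −1.61 with an adjusted p of 0.0158. Over the alternatives its adjusted p ranged from 0.00111 to 0.420.

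Tyrp1, which oxidizes a melanin precursor, was at 2.01, 68.4 and 3.79 CPM in WT and at 4.14, 5.91, 13.4 and 3.07 CPM in Akita. It was at 3.17, 12.3, 7.66, 8.82 and 3.59 CPM in Akita + NACET and at 4.25, 7.75 and 100.1 CPM in WT + NACET. Mlana was at 1.29, 51.5 and 2.29 CPM in WT, at 2.03, 3.07, 7.60 and 3.23 CPM in Akita and at 1.38, 5.89, 2.999, 5.16 and 2.81 CPM in Akita + NACET. In WT + NACET the lowest, median and highest values of Mlana were 0.5002, 2.91 and 72.0 CPM, so that this group held both the lowest and the highest library of all. All groups overlapped in both genes. Between the treated groups Tyrp1 differed by −1.73 (SE 1.02, adjusted p = 0.266) and Mlana by −2.05 (SE 1.23, adjusted p = 0.272), and without WT + NACET replicate 5 by −0.22 and −0.04.

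Against WT, the Akita group differed by −2.48 in Dct (SE 1.02, adjusted p = 0.136), by −1.87 in Tyrp1 (SE 1.25, adjusted p = 0.362) and by −2.18 in Mlana (SE 1.48, adjusted p = 0.369). The direction of all 3 rested on WT replicate 2. Without it the differences were 0.10, 1.19 and 1.14, so that the sign of the fitted difference turned. For Dct, 3 of the 4 Akita libraries (10.9, 12.8 and 10.2 CPM) were still below both remaining WT libraries (14.1 and 16.9 CPM), and Akita replicate 3 (32.4 CPM) was above them. The values in the other 2 WT libraries lay between 1.29 and 16.9 CPM over the 3 genes. They were 2.01 and 3.79 CPM in Tyrp1, against 3.07 to 13.4 CPM in Akita. In Mlana they were 1.29 and 2.29 CPM, against 2.03 to 7.60 CPM in Akita.

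Mitf and Best1 did not share the wide range of the other 8 genes. Mitf was at 10.8, 14.8 and 8.73 CPM in WT, at 7.57, 9.21, 10.7 and 7.46 CPM in Akita and at 10.2, 12.5, 10.3, 10.6 and 7.38 CPM in Akita + NACET. In WT + NACET it was at 9.29, 10.7 and 13.1 CPM (lowest, median, highest). All groups overlapped, and Akita differed from WT by −0.38 (SE 0.19, adjusted p = 0.204). The 2 libraries with the most Dct, WT replicate 2 and WT + NACET replicate 5, also had the most Mitf. Of the related factors Tfeb, Tfe3 and Tfec, none was analysed here.

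Best1 had between 9 and 42 counts per library, the fewest of the 10 genes by mean CPM, and so a large counting error. It was at 1.51, 1.84 and 1.99 CPM in WT, at 1.89, 1.91, 1.88 and 0.746 CPM in Akita and at 2.89, 2.06, 1.85, 1.06 and 1.89 CPM in Akita + NACET. In WT + NACET it was at 1.29, 1.78 and 2.52 CPM, so that the 4 groups overlapped. WT + NACET replicate 4, with the most Rpe65 (104 CPM), had 1.82 CPM of Best1, and Akita replicate 2, with the least Rpe65 (5.27 CPM), had 1.91 CPM. Best1 thus had nearly the same level at the highest and the lowest Rpe65, although both are known as genes of the pigment epithelium. Akita + NACET differed from Akita by 0.26 in Best1 (SE 0.29, adjusted p = 0.589). Of its family, Best2, a gene of the ciliary epithelium, was at 0 to 21.9 CPM, with its group means between 1.23 and 7.11 CPM. Best3 was at 1.99 to 2.64 CPM in WT and at 0.580 to 1.33 CPM in Akita, where it was lower by 1.36 on the log2 scale (SE 0.36, adjusted p = 0.0293). Summed over Best2 and Best3, the 4 highest libraries were Akita replicate 3 (22.5 CPM), WT + NACET replicate 1 (16.4 CPM), WT + NACET replicate 5 (13.5 CPM) and WT replicate 2 (11.7 CPM), which were also the 4 highest libraries for Tyrp1 and Mlana.

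Over the 18 libraries the visual cycle genes and Ttr varied together, as did, less closely, the melanin genes. Pearson's r of log2 CPM among Rpe65, Lrat, Rdh5, Rgr and Ttr lay between 0.947 and 0.991, and between 0.953 and 0.992 for deviations from the group means. Among Tyrp1, Dct and Mlana it lay between 0.688 and 0.914, and between 0.907 and 0.969 for deviations from the group means. The melanin genes' values rested partly on the extreme libraries: r of Dct with Mlana was 0.688 (Spearman's coefficient 0.424) and 0.156 without the 2 libraries farthest from the median. Rpe65 had r of −0.01 with Mlana, 0.26 with Tyrp1 and 0.50 with Dct. Dct did not separate cleanly from the visual cycle genes. Its r was 0.658 with Rdh5 and 0.607 with Ttr, and its Spearman's coefficients with them, 0.773 and 0.767, were above that with Mlana. Without the 2 farthest libraries r of Dct was 0.590 with Rdh5 and 0.536 with Ttr. For deviations from the group means it was 0.334 with Rdh5 and 0.312 with Ttr. Within the 6 WT + NACET libraries, of which replicate 5 was far above the others in Dct, it was −0.50 with Rdh5 and −0.63 with Ttr. Mitf had r of 0.77 with Dct, 0.73 with Tyrp1 and 0.58 with Mlana. With the visual cycle genes and Ttr its r lay between 0.53 (Rpe65) and 0.65 (Ttr), a range that includes its r with Mlana. For deviations from the group means r of Mitf was 0.632 with Mlana and between 0.445 (Rpe65) and 0.595 (Ttr) with these genes. Without the 2 farthest libraries it was 0.188 with Mlana, 0.426 with Rpe65 and 0.572 with Ttr. Best1 had r between 0.13 and 0.28 with every other gene. All points share their libraries, so these values describe these libraries and carry no test.

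**Figure D5:**
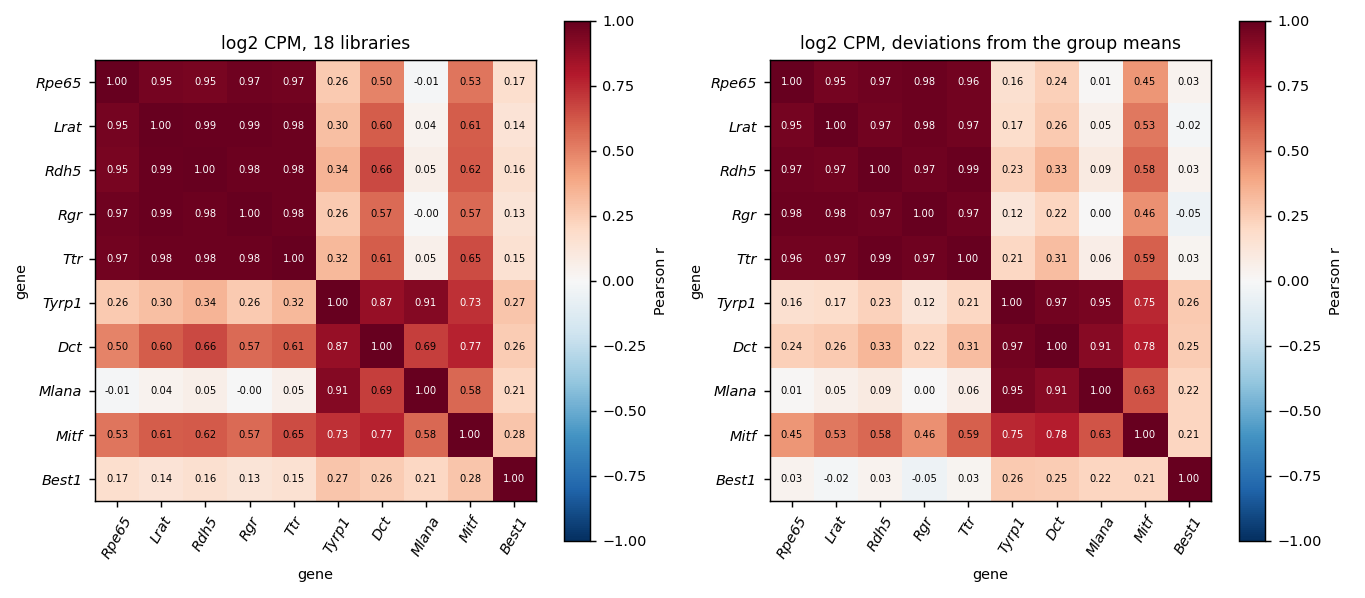
Pearson's r of log2 CPM between the 10 genes over the 18 libraries (left) and for deviations from the group means (right), in color and in digits. Rpe65, Lrat, Rdh5, Rgr and Ttr form a block with r of at least 0.947, Tyrp1, Dct and Mlana have r of 0.688 to 0.914 with each other, Dct has r of up to 0.658 with the first block, and Best1 has r of at most 0.28 with any gene.

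Genes whose levels were most like Rpe65 over the 18 libraries, among 16173 tested genes outside the 10, were Slc16a8 (r = 0.975), Col8a1 (0.971), Slc6a20a (0.968), Stra6 (0.964), Car12 (0.962), Pon1 (0.952), Col8a2 (0.952), Cpxm2 (0.950) and Ermn (0.949). Slc16a8 is the lactate transporter of the pigment epithelium, Stra6 its receptor for retinol-binding protein, and Col8a1 and Col8a2 are chains of collagen VIII. None of those named was called in the comparisons of Akita with WT or of Akita + NACET with Akita. Slc16a8 and Sema3c, a semaphorin, were also among the 3 genes most like Lrat, Rdh5, Rgr and Ttr, with r of Slc16a8 between 0.980 and 0.991. Car12 was among the 3 for Lrat and Rgr, Pltp for Rdh5 and Stra6 for Ttr.

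The genes most like the melanin genes were others. For Tyrp1 they were Gpnmb (r = 0.975), Pmel (0.962) and Ucp2 (0.927), for Dct Slc24a5 (0.949), Cd63-ps (0.944) and Cox8b (0.941), and for Mlana Pmel (0.950), Gsta3 (0.919) and Papss2 (0.915). Pmel makes the fibrils of the melanosome and Slc24a5 is its cation exchanger. Cd63-ps is a pseudogene that can share reads with Cd63, so its counts are uncertain. For Mitf the most alike genes were Tmem51 (0.851), Msrb2 (0.841) and Tlr13 (0.840), and for Best1 Stk33 (0.783), Tcfcp2l1 (0.778) and Cldn3 (0.754), all at means under 1 CPM in the case of Best1.

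Other genes of the visual cycle and of retinoid handling, 14 in a list chosen for their function, had smaller median changes than the 10 genes, except in the interaction (−0.33 against 0.18). Many of them are genes of photoreceptors or Mueller glia, led in level by Rbp3, the retinoid-binding protein between photoreceptors and pigment epithelium. In Akita against WT 1 rose, Rbp3 (0.78, SE 0.19, adjusted p = 0.0236 by edgeR), and 0 fell. In Akita + NACET against Akita 2 fell, Rbp3 (−0.58, adjusted p = 0.0343) and Abca4, the retinal transporter of the discs (−0.51, adjusted p = 0.0486). In WT + NACET against WT and in Akita + NACET against WT 0 were called. Between the treated groups 3 were lower in Akita + NACET: Retsat (−0.42), Degs1 (−0.38) and the retinol dehydrogenase Rdh14 (−0.27). The interaction called Rbp3 (−0.89) and Rdh14 (−0.38). Rlbp1, the cis-retinal carrier of pigment epithelium and Mueller glia, was at 205 to 436 CPM and was called in none. The median log2 fold change of the 14 genes lay between −0.33 and 0.20 over the 6 contrasts.

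Of 17 other pigment epithelium genes, few were called. Mertk, the receptor for shed outer segments, rose in Akita + NACET against Akita (0.92, SE 0.24, adjusted p = 0.028), with 2.55 to 4.62 CPM against 1.61 to 2.13 CPM. Ctsd, the lysosomal protease that degrades them and the most abundant of the list, rose in WT + NACET against WT (0.49, SE 0.12, adjusted p = 0.0434). Ctsd was lower in Akita + NACET than in WT + NACET (−0.50, SE 0.10, adjusted p = 0.00476) and in the interaction (−0.59). Krt18, a keratin, rose in Akita against WT (0.57), fell in Akita + NACET against Akita (−0.63) and was lower in the interaction (−0.83). The median over the list was −0.47 in Akita against WT, 0.53 in Akita + NACET against Akita, 0.72 in WT + NACET against WT and −1.04 between the treated groups. At equal Rpe65, 3 of the 17 were lower in Akita + NACET than in WT + NACET, where 8.17% of all tested genes were called in either direction. These were Slc16a8 (−0.57, adjusted p = 0.0115), Ctsd (−0.43, adjusted p = 0.00923) and the potassium channel Kcnj13 (−1.08, adjusted p = 0.0219), the last named after its value was seen. Genes of other lists were also called in this fit. Of 8 genes of other epithelia that make transthyretin 2 were lower, of 10 lens genes 2 were lower, and of 4 globins 2 were higher. Of the Mueller glia and endothelial lists 0 were called. The calls of Akita against WT as a whole rested on few libraries, with 1237 genes called in all and 0 without WT replicate 1 or without WT replicate 2, and those of Akita + NACET against Akita fell from 1562 to 1 without Akita replicate 4 and to 101 without Akita + NACET replicate 5. With reads outside exons as a covariate 0 genes were called in both.

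Of 12 other melanin and melanosome genes, led in level by Trpm1, a channel that bipolar cells also use, 2 were lower in Akita + NACET than in WT + NACET. Tyr, the tyrosinase that starts melanin synthesis, differed by −2.21 (SE 0.66, adjusted p = 0.0388), with 0.447 to 2.59 CPM against 3.04 to 13.5 CPM, and Slc24a5 by −0.92 (SE 0.30, adjusted p = 0.0497). The levels of Tyr did not overlap between these groups, like those of Dct. Mreg, a melanosome transport gene, rose in Akita against WT (0.59, SE 0.12, adjusted p = 0.0162), fell in Akita + NACET against Akita (−0.34, adjusted p = 0.0457) and was lower in the interaction (−0.52). In WT + NACET against WT 0 of the 12 were called.

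Markers of other cell types moved with some of these libraries. The 10 lens genes summed to 24661 CPM in WT + NACET replicate 5, the library with the most Tyrp1, Dct and Mlana, to 2968 CPM in Akita replicate 2, which had the least Rpe65, to 1299 CPM in Akita + NACET replicate 3 and to 358 CPM in Akita + NACET replicate 5, against 2.96 to 66.2 CPM in the other 14 libraries. In WT replicate 2, the other library with high melanin genes, they summed to 23.6 CPM. The 6 genes of choroid and sclera fibroblasts summed to 47.2 CPM in WT replicate 2, 46.5 CPM in WT + NACET replicate 5 and 44.0 CPM in Akita replicate 3, and to at most 21.9 CPM in the other 15 libraries. Of the 4 melanocyte genes, Sox10 was too low to be tested and the sum was 13.4 to 33.9 CPM, led by Ednrb, with WT + NACET at 18.2 to 26.4 CPM. Kit was lower in Akita than in WT (−0.92, adjusted p = 0.0235) and higher in Akita + NACET than in Akita (0.79, adjusted p = 0.0244). Mc1r was higher in WT + NACET than in WT (1.58, adjusted p = 0.000281) and lower in Akita + NACET than in WT + NACET (−1.38, adjusted p = 7.33e-05). The 8 genes of other epithelia that make transthyretin summed to 349 to 743 CPM in WT + NACET and to 159 to 375 CPM in the other groups. Most of the sum was Enpp2, with a mean of 354 of 512 CPM in WT + NACET. Enpp2 was lower in Akita + NACET than in WT + NACET (−1.50, SE 0.41, adjusted p = 0.0282). Kcne2 (−0.66) and Sostdc1 (−0.80) of this list were also lower there. The part of each of these cell types in the levels of the 10 genes was not tested.

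Among rod genes, Nrl (0.55, adjusted p = 0.0359 by edgeR) and Cnga1 (0.47, adjusted p = 0.0449) rose in Akita against WT. In Akita + NACET against Akita, Gnat1 (−0.65), Prph2 (−0.50), Nrl (−0.49), Rom1 (−0.44), Pde6a (−0.44) and Cnga1 (−0.39) fell. Pde6a (−0.50) and Sag (−0.43) were lower in Akita + NACET than in WT + NACET, and the interaction called each of these genes as well as Pdc (−1.08) and Pde6b (−0.57). CPM are shares of a library, and Gnat1 was at 15446 to 24551 CPM in Akita and at 8426 to 12952 CPM in Akita + NACET, beside the lower and higher levels of the visual cycle genes in these groups. The part of this in the levels of the 10 genes was not tested.

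Of the 8 Mueller glia genes, led by Dkk3, 2 fell in Akita against WT, Abca8a (−0.64) and Aqp4 (−0.54). Abca8a rose in Akita + NACET against Akita (0.49) and in the interaction (0.82), and Glul was lower in Akita + NACET than in WT + NACET (−0.45). Of the 6 endothelial genes, led by Kdr, Cldn5 fell in Akita against WT (−2.11), rose in Akita + NACET against Akita (2.14) and was called in the interaction (2.83). Among the 4 globins, led by Hbb-b1, Hbb-b2 rose in Akita + NACET against Akita (2.18), and Hbb-b2 (1.41) and Hba-a1 (1.44) were higher in Akita + NACET than in WT + NACET. The globin genes are near-identical copies, so their counts are uncertain. The interaction also called Best3 (1.47), Kit (0.83), Mc1r (−1.99) and Kcne2 (−0.91), and Kcne2 fell in Akita + NACET against Akita (−0.55). The lens list was led by Cryaa, the fibroblast list by Dcn and the skeletal muscle list by Mylpf. In the edgeR fit by group, 0 genes of these lists were called in any contrast.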

How the data were processed

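Poly(A) RNA of 18 mouse retina libraries (TruSeq, NextSeq 500, single end) was aligned by the authors with TopHat 2.1.0 to mm9 and counted per gene over exons with HTSeq-count 0.11.2, without strand, and the deposited values are raw counts. The entry without a name (0.00544% of counts) and 206 ribosomal RNA genes (0.977%) were left out here. Groups were taken from the labels. Counts were tested with edgeR 4.0.16 in R 4.3.3 (TMM normalization, filterByExpr with a minimum count of 10 and a minimum total of 15, robust quasi-likelihood F test, all 4 groups in 1 fit), and p-values were adjusted by Benjamini-Hochberg over 16183 genes and called at 0.05 or less. DESeq2 1.42.0, other filters and normalizations, a replicate block, covariates and each library left out were tried as alternatives. The code was tested on simulated data. CPM used TMM library sizes, and log2 CPM a prior count of 2. Of the genes' names 96.1% were in the mm9 annotation. All 10 genes are named with values. From the other lists a gene is named where called in at least 1 of the 6 contrasts or highest by mean CPM, and the genes most like Rpe65 (10) or another member (3) are those with the highest r. Some genes that this rule names are not reported here. The 10 genes and the lists were chosen with earlier results of these data known. Strands were counted together, so reads of overlapping antisense genes cannot be told apart.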

Additional observations from a re-analysis of the deposited data

Results flagged for a closer look

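Of 30 pairs of a gene and a group with 4 to 6 libraries, 5 held a library far from the others by Dixon's criterion, and chance marks about 1 in 20. Best1 in Akita replicate 4 was at 0.746 CPM, below the next library at 1.88 CPM. WT + NACET replicate 5 stood above the rest of its group in 3 melanin genes. Its level was 100.1 CPM of Tyrp1 (next library 17.1 CPM), 426 CPM of Dct (next 86.2 CPM) and 72.0 CPM of Mlana (next 11.6 CPM). Dct in Akita replicate 3 was at 32.4 CPM, with the next library at 12.8 CPM. The 5 values come from 3 libraries, and the cause was not tested.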

How the results depend on the processing

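In Akita against WT, 1237 genes were called, and DESeq2 with all groups called 2080, edgeR with 2 groups 148, the replicate block 507, reads outside exons (their share as a covariate) 0, Rpe65 as a covariate 770, Rgr 104 and Ttr 480. Without both libraries with the highest melanin genes 20 were called, and with a library left out 0 to 1515. Of the 10 genes 2 were called with Rpe65 as a covariate. In Akita + NACET against Akita, 1562 genes were called, and without a filter 1010, with DESeq2 2387, with edgeR on 2 groups 700, with the replicate block 219, with reads outside exons 0, with Rpe65 0, with Rgr 0, with Ttr 421, and with a library left out 1 to 1754. Of the 10 genes 1 was called at a mean count of at least 50, 4 and 2 by DESeq2 with all and 2 groups, 1 with Ttr, and 0 to 1 with a library left out. In WT + NACET against WT, 240 genes were called, and with DESeq2 705 and 938, with reads outside exons 61, with Rpe65 45, with Rgr 48, with Ttr 68, without both melanin-high libraries 67, and with a library left out 72 to 329. Of the 10 genes 3 were called by DESeq2 with 2 groups and 1 with Ttr. In Akita + NACET against WT, 1 gene was called, and without a filter 2, with DESeq2 11 and 28, with edgeR on 2 groups 3, with the replicate block 0, without both melanin-high libraries 0, and with a library left out 0 to 2. Between the treated groups, 2148 genes were called, and with the replicate block 1363, with reads outside exons 194, with Rpe65 1322, with Rgr 806, with Ttr 624, without both melanin-high libraries 1209, and with a library left out 860 to 2422. Of the 10 genes 1 was called at a mean count of at least 50, 2 and 2 by DESeq2, 1 by edgeR with 2 groups, 4 with Rpe65, 2 with Rgr, 1 with Ttr and 1 without both melanin-high libraries. The interaction called 3289 genes, with reads outside exons 17, without both melanin-high libraries 1191, and with a library left out 1699 to 3524.

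Without WT replicate 2, and so without both melanin-high libraries, the difference of Akita from WT turned to 0.10 in Dct and 1.19 in Tyrp1, and to 1.14 and 1.15 in Mlana. With a library left out it ranged from −3.04 to 0.10 in Dct, from −2.47 to 1.19 in Tyrp1 and from −2.73 to 1.14 in Mlana. With Rgr in place of Rpe65, Lrat (0.0116) and Ttr (0.22) turned in Akita against WT, and Ttr (0.0218) between the treated groups. The cause was not tested.

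Libraries with the same replicate number did not deviate together (r from −0.332 to 0.345), so the numbers do not pair the samples. With the replicate block 0 of the 10 genes were called in each contrast. At equal Rpe65 the block kept the calls of Rdh5 (−0.98, adjusted p = 0.00312) and Rgr (−0.51, adjusted p = 0.0449) between the treated groups and not those of Lrat (−0.75, adjusted p = 0.0807) and Ttr (−0.54, adjusted p = 0.136), nor those of Rdh5 (−0.65, adjusted p = 0.0926) and Rgr (−0.73, adjusted p = 0.0675) in Akita against WT. Reads outside exons as a covariate left only Rdh5 called between the treated groups (−0.98, adjusted p = 0.00209) of the 4 genes called at equal Rpe65. The fits with Rpe65, Rgr or Ttr and those without both melanin-high libraries were chosen after seeing the data. By mean level, depth limits Best1 most, with 9 to 42 counts per library. The lowest count of the 10 genes was that of Mlana, 7 in WT + NACET replicate 2, the low end of its 144-fold span.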
